A study of Mus musculus with 2 samples.

Results

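The genes described here encode the proteins of the cytosolic ribosome, measured by RNA sequencing in mouse bone marrow-derived macrophages. They were chosen by symbol alone, as Rpsa and all genes named Rpl, Rplp or Rps followed by a number and at most the letter a, x, l or y. Names of processed copies and of the Rps6k kinases were left out. The rule found 82 of the 16218 named genes of the deposited table, 50 of the large subunit and 32 of the small subunit. Of these, 76 encode core members (46 large, 30 small) and 6 are named as second copies of a core member (Rpl3l, Rpl10l, Rpl32l, Rpl39l, Rps4l and Rps27l). Genes of ribosome proteins that the rule leaves out include Rps3a1, Fau and Rack1, which are given separately further on.

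There were 2 libraries. The TKO library came from cells of genotype mir-106a~363-/-, mir-106b~25-/- and mir-17~92flox/flox with Lyz2-Cre, and the WT library from Lyz2-Cre cells, so both carried Cre under the myeloid Lyz2 promoter and the WT cells were not free of it. The floxed allele is lost only where Cre acts, and how completely it was lost was not tested. Both libraries came from C57BL/6J mice, and marrow was grown for 5 days with 10% serum and 10% L929 supernatant, which supplies the growth factor macrophages need, before lipopolysaccharide (LPS) was given at 10 ng/ml for 3 h. Ages and the number of animals behind each library are not given in the sources used here. With 1 library per genotype no difference has a replicate check, no p-value is given, and a difference between the cultures cannot be told apart from 1 between the genotypes.

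The ribosome is built from ribosomal RNA and a fixed set of proteins, each present in a single copy apart from those of the stalk that recruits translation factors. The small subunit reads the messenger RNA and the large subunit joins the amino acids. The genes are scattered over the genome and their messenger RNAs are among the most abundant of a growing cell. Most of these messenger RNAs begin with a run of pyrimidines, the terminal oligopyrimidine (TOP) tract, through which their translation follows mTOR signalling. In macrophages LPS drives a large change of transcription and of translation within hours.

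The rule did not use the TOP tract, and stretches around the start of members are shown to let it be read, from the RefSeq promoter table (GRCm38.p6). It held 61 of the 82 members. Each stretch runs on the gene's strand from 20 bases before the annotated start to 30 bases from it on, and capitals mark its longest run of C and T. Shown first are 3 genes with runs of 18 to 21 bases, picked with log2 ratios from −0.11 to −0.07. Next are 3 with runs of 10 to 13 bases, picked with log2 ratios from −0.29 to −0.23. All of the genes picked had a lower level in TKO. Other members with such runs had other ratios. Rpl34, with an entry with a run of 20 bases, had a log2 ratio of −0.22. Rps6 and Rpl38, with runs of 10 bases, had −0.03 and −0.04. Shown last are the lowest and highest measured members with an entry, which have no long run.
Rpl7a (chr2:26910787-26910836, plus strand): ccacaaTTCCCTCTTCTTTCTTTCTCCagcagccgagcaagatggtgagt
Rpl27a (chr7:109519175-109519224, plus strand): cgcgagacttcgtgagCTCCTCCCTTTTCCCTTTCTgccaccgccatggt
Rpl35 (chr2:39005102-39005151, minus strand): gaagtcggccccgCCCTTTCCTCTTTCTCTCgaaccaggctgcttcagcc
Rps10 (chr17:27635215-27635264, minus strand): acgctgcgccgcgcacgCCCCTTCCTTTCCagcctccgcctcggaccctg
Rpl28 (chr7:4792945-4792994, plus strand): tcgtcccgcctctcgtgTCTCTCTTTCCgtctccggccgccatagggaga
Rplp2 (chr7:141447631-141447680, plus strand): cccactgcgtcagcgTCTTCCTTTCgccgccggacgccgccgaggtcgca
Rps28 (chr17:33824533-33824582, minus strand): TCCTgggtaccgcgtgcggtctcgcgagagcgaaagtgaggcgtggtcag
Rpl36a (chrX:134585634-134585683, plus strand): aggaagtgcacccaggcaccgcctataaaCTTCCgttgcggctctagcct

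A run of at least 8 pyrimidines lay in this stretch in 34 of the 61 members (55.7%), against 21.5% of the 27025 genes of the promoter table and 21.9% of the other measured genes. The letters CTTTCC on the gene strand within it were found in 19.7% of members, against 2.83% of all genes and 2.81% of the other measured genes. Searched on both strands over the whole 300 bases, CCGGAAG, the core letters of an ETS-family motif, was present in 41.0% of members, against 9.93% of all genes and 21.0% of the other measured genes. AAGATGGC, letters of a YY1 motif, stood in 8.2% of members, against 3.19% of all genes and 5.61% of the other measured genes. TATAA was about as frequent in members (29.5%) as in all genes (28.0%), and less frequent in the other measured genes (15.5%). GGGCGG, the GC box, was found in 59.0% of members, against 38.2% of all genes and 68.4% of the other measured genes. These searches overlap, since a CTTTCC inside a pyrimidine run counts for both, and a match of letters is not a bound site.

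A level is given here as FPKM (fragments scaled to gene length and library size) when genes are compared with each other, and a difference between the libraries as a ratio of CPM, counts scaled to a library of 1000000. A gene was measured when its mean was at least 1 CPM. The log2 ratio is that of TKO over WT after 0.5 CPM was added to each. Each ratio has a 95% Clopper-Pearson interval from the counts, which covers counting error only. The library totals were 10836879 counts for TKO and 10764538 for WT, and 78 of the 82 members were measured, 69 of them with at least 1000 counts in both libraries. The other 4 were second copies, with 2 counts in TKO and 6 in WT for Rpl39l, 1 in TKO and 3 in WT for Rpl10l, 2 in TKO and 4 in WT for Rpl32l, and 0 in TKO and 1 in WT for Rpl3l, which is known from striated muscle.

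Messenger RNAs of the ribosome made up a slightly smaller part of the TKO library. The 82 genes held 258610 counts in TKO, 2.39% of the library (2.38 to 2.40), against 286896 counts in WT, 2.67% (2.66 to 2.67). Their summed CPM was 1.12-fold lower in TKO (1.11 to 1.12). The large subunit held 165000 counts in TKO and 180674 in WT, 1.1-fold lower (1.1 to 1.11). The small subunit held 93610 in TKO and 106222 in WT, 1.14-fold lower (1.13 to 1.15). In such bulk samples fewer cells of a type and less RNA per cell cannot be told apart.

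The difference was small and spread over nearly all members. The log2 ratio lay below 0 in 73 of the 78 measured members, where 57.4% of all 11663 measured genes lay below 0. Its median over members was −0.17, with quartiles of −0.27 and −0.07, against −0.04 over all measured genes. Among the 2028 other genes averaging 100 CPM or more, a level that most but not all measured members reached, the median was 0.01. At least 1.1-fold lower in TKO, with an interval that excludes equality, were 46 of the 78 measured members (59.0%), where 18.8% of all measured genes and 24.3% of those of at least 100 CPM met the same rule. A single member, Rps4l, was at least 1.1-fold higher, where 12.6% of all measured genes and 23.6% of those of at least 100 CPM were. Regardless of size, the interval lay below equality for 57 members, where 20.2% of all measured genes did. It lay above equality for 3 members, where 14.1% did. For the other 18 members it included equality. Whether an interval excludes equality depends on the count. Among the 2028 other genes of at least 100 CPM, it lay below equality for 616 and above it for 672.

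The scaling sets where 0 lies. TMM scaling of edgeR moved all log2 ratios up by about 0.05 and DESeq2 size factors by 0.03. The members' median was then −0.12 under TMM and −0.13 under DESeq2, with 65 and 67 of 78 members below 0. The number of members at least 1.1-fold lower was 33 under TMM and 38 under DESeq2. For all measured genes the shares at least 1.1-fold lower and higher were 14.6% and 16.5% under TMM, and 15.4% and 15.4% under DESeq2.

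**Figure D1:**
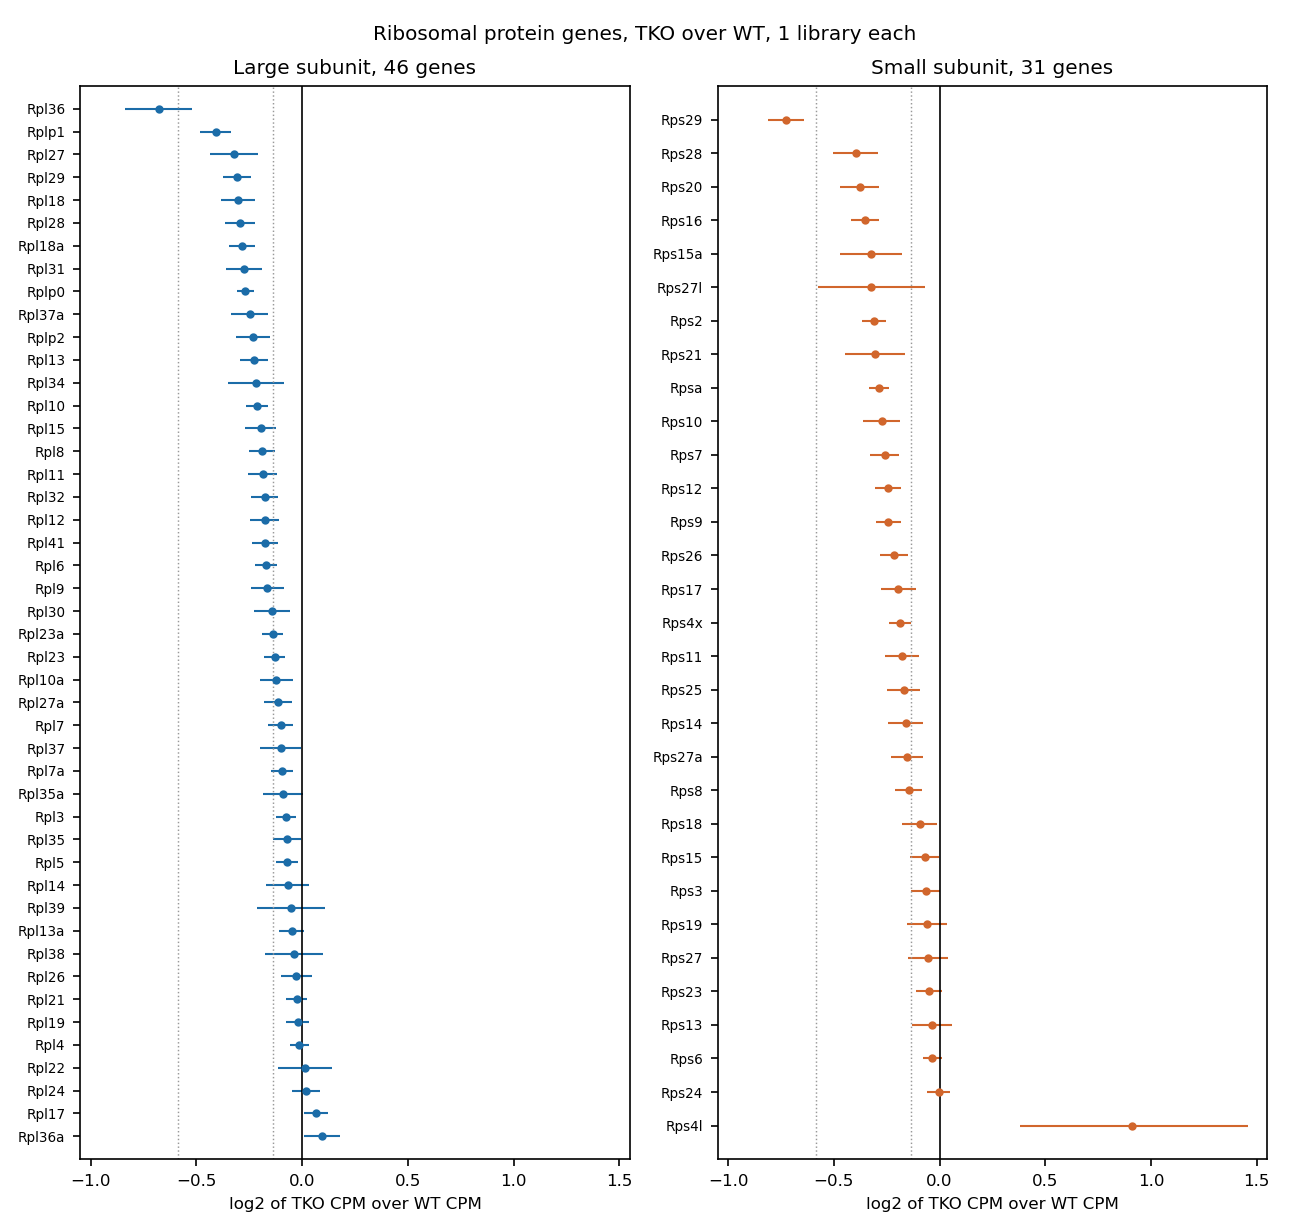
Ratio of TKO over WT for the 46 measured large-subunit genes (left) and 31 small-subunit genes (right), ordered by ratio. Points are log2 ratios of CPM without the added 0.5 CPM, bars are 95% counting intervals, and dotted lines mark 1.1-fold and 1.5-fold lower. Rps29 and Rpl36 lie apart at the low end and Rps4l at the high end, and 72 of 77 points lie left of 0.

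Both subunits took part. Among large-subunit genes 42 of 46 had a log2 ratio below 0, with a median of −0.14, and 24 were at least 1.1-fold lower in TKO. Among small-subunit genes 31 of 32 lay below 0, with a median of −0.19, and 22 were at least 1.1-fold lower. The medians of the subunits differed by 0.05, large minus small, which is less than the quartile range within either subunit (−0.23 to −0.07 in the large, −0.31 to −0.07 in the small), so the subunits overlapped widely. With no filter on low values the difference was 0.02. On the FPKM scale the summed level of the 50 large-subunit genes was 1.58 times that of the 32 small-subunit genes in TKO. In WT it was 1.53 times. These sums grow with the number of genes. The median over measured genes in TKO was 418 FPKM in the large and 394 in the small subunit. In WT the medians were 465 FPKM in the large and 457 in the small subunit.

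Rps29 and Rpl36 stood furthest from the rest at the low end. They are the 2 members at least 1.5-fold lower in TKO, a size that 5.6% of all measured genes reached. Rps29 encodes a small zinc-binding protein of the head of the small subunit (chr12:69157722-69159186). It had 1773 counts and 390 FPKM in TKO, against 2910 counts and 645 FPKM in WT, and was 1.65-fold lower (1.56 to 1.75), a log2 ratio of −0.72. By FPKM it ranked 181 among all genes in TKO and 84 in WT. Rpl36 (chr17:56610094-56614246), a short protein of the large subunit, had 539 counts and 126 FPKM in TKO, against 857 counts and 202 FPKM in WT. It was 1.60-fold lower (1.44 to 1.79), a log2 ratio of −0.67. Their deposited gene lengths are short, 449 bases for Rps29 and 425 for Rpl36. Of the 16 measured members under 500 bases, 11 were at least 1.1-fold lower, these 2 included. Of all measured members 59.0% were, and of all measured genes 18.8%. Among the 16, 3 had an interval that includes equality and 1, Rpl36a, an interval above it. Rpl39 (434 bases), which lines the tunnel through which the new protein leaves, had 624 counts in TKO and 642 in WT, and Rps27 (371 bases) had 1808 in TKO and 1863 in WT, with intervals that include equality for both. Rplp2 (441 bases) was 1.17-fold lower and Rps21 (396 bases) 1.24-fold lower. Rps28 (328 bases), a small-subunit protein near the path by which the messenger RNA leaves, had 1309 counts in TKO and 1712 in WT and was 1.32-fold lower (1.22 to 1.42).

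The stalk genes were lower together. Rplp0, Rplp1 and Rplp2 encode the P stalk of the large subunit, which binds the elongation factors. Rplp1 had 2666 counts and 561 FPKM in TKO, against 3515 counts and 744 FPKM in WT, and was 1.33-fold lower (1.26 to 1.40). Rplp0, which anchors the stalk, had 9282 counts and 637 FPKM in TKO, against 11102 counts and 766 FPKM in WT, 1.2-fold lower (1.17 to 1.24). Rplp2 had 2335 counts in TKO and 2720 in WT, 1.17-fold lower (1.11 to 1.24). Rplp1 was lower by more than Rplp0, with intervals that did not overlap, while the intervals of Rplp0 and Rplp2 overlapped.

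Rps20 and Rps16, for proteins of the small-subunit head, followed Rps29 and Rps28 at the low end of the small subunit. Rps20 had 1685 counts in TKO and 2174 in WT, 1.30-fold lower (1.22 to 1.39). Rps16, whose protein reaches towards the transfer RNA in the decoding site, had 3185 counts in TKO and 4039 in WT, 1.28-fold lower (1.22 to 1.34). Rps28, Rps20 and Rps16 had overlapping intervals. Rps3, which borders the entry of the channel and is known in human cells also as a partner of NF-κB, had 3511 counts in TKO and 3652 in WT, a log2 ratio of −0.07 with an interval reaching just past equality. Rps19, the gene most often mutated in human Diamond-Blackfan anaemia, had 1841 in TKO and 1905 in WT, a log2 ratio of −0.06.

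Among other large-subunit genes, Rpl27 had 1155 counts in TKO and 1433 in WT, 1.25-fold lower (1.16 to 1.35), and Rpl29 had 3420 in TKO and 4208 in WT, 1.24-fold lower (1.18 to 1.30). Genes of proteins around the peptidyl transferase centre differed among themselves. Rpl3 had 6781 counts in TKO and 7102 in WT, 1.05-fold lower (1.02 to 1.09). Rpl4 had 7569 in TKO and 7585 in WT, with an interval that includes equality. Rpl10, whose protein joins the large subunit late in its maturation, had 5783 in TKO and 6662 in WT, 1.16-fold lower (1.12 to 1.2). The intervals of Rpl4 and Rpl10 did not overlap.

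Rpl5 and Rpl11 bind the 5S ribosomal RNA together, and outside the ribosome both hold back Mdm2, the ligase for p53. Rpl11 had 3220 counts in TKO and 3637 in WT, 1.14-fold lower (1.08 to 1.19). Rpl5 had 5883 in TKO and 6135 in WT, 1.05-fold lower (1.01 to 1.09). The intervals of these partners overlapped.

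Further members with known roles outside protein synthesis or in signalling had log2 ratios from −0.29 (Rpsa) to −0.03 (Rps6), a part of the members' range. Rps6, the substrate of the S6 kinases, had 7609 counts and 509 FPKM in TKO, against 7738 counts and 521 FPKM in WT, a log2 ratio of −0.03 with an interval that includes equality. Rpsa, also known as the laminin receptor precursor, had 6380 counts in TKO and 7732 in WT, 1.22-fold lower (1.18 to 1.26). Rpl13a, which in human myeloid cells leaves the ribosome to silence inflammatory messenger RNAs, had 4693 in TKO and 4823 in WT, a log2 ratio of −0.05 with an interval that includes equality. Rps14, lost in a human myelodysplastic syndrome, had 2274 in TKO and 2523 in WT, 1.12-fold lower (1.05 to 1.18). Rps27a, made as a fusion with ubiquitin, had 2791 in TKO and 3084 in WT, 1.11-fold lower (1.06 to 1.17). Rpl38, needed in mouse embryos for translation of Hox messenger RNAs, had 865 in TKO and 881 in WT, a log2 ratio of −0.04. TMM scaling turned the signs of 8 members close to 0, Rps6, Rpl4, Rpl38, Rpl19, Rpl21, Rpl26, Rps13 and Rps24, to just above 0, and DESeq2 size factors turned all of these but Rpl38 and Rps13.

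The 5 measured members with a log2 ratio above 0 were Rpl36a, Rpl17, Rpl24, Rpl22 and Rps4l. Rpl36a, an X-linked gene whose protein lies at the site where spent transfer RNA leaves, had 2294 counts in TKO and 2134 in WT, a ratio of 1.07 (1.01 to 1.13) and a log2 ratio of 0.09. Rpl17, a protein of the exit tunnel, had 5002 in TKO and 4743 in WT, a ratio of 1.05 (1.01 to 1.09). Rpl24, which bridges the subunits, had 3752 in TKO and 3676 in WT, and Rpl22, known in mice for its part in T cell development, had 1010 in TKO and 995 in WT, with intervals that include equality for both. Rps24 had 5540 in TKO and 5518 in WT, a log2 ratio of −0.00, and Rps13 had 1764 in TKO and 1798 in WT, a log2 ratio of −0.04. Of the other X-linked members, Rpl10 was lower as given above, Rps4x was 1.14-fold lower (1.1 to 1.18), and Rpl39 had an interval that includes equality.

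Rps4l, a second copy named after Rps4x (chr6:148354656-148355596), was the single member at least 1.5-fold higher, a size that 2.98% of all measured genes reached. It had 87 counts and 8.73 FPKM in TKO, against 46 counts and 4.65 FPKM in WT, a ratio of 1.88 (1.30 to 2.75) and a log2 ratio of 0.84. Rps4x had 5937 counts and 564 FPKM in TKO, against 6711 counts and 642 FPKM in WT. Rps27l, a second copy of Rps27 that responds to p53 in human cells, had 235 counts in TKO and 292 in WT and was 1.25-fold lower (1.05 to 1.49). Reads of near-identical copies may be divided among them, so the values of second copies are uncertain.

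**Figure D2:**
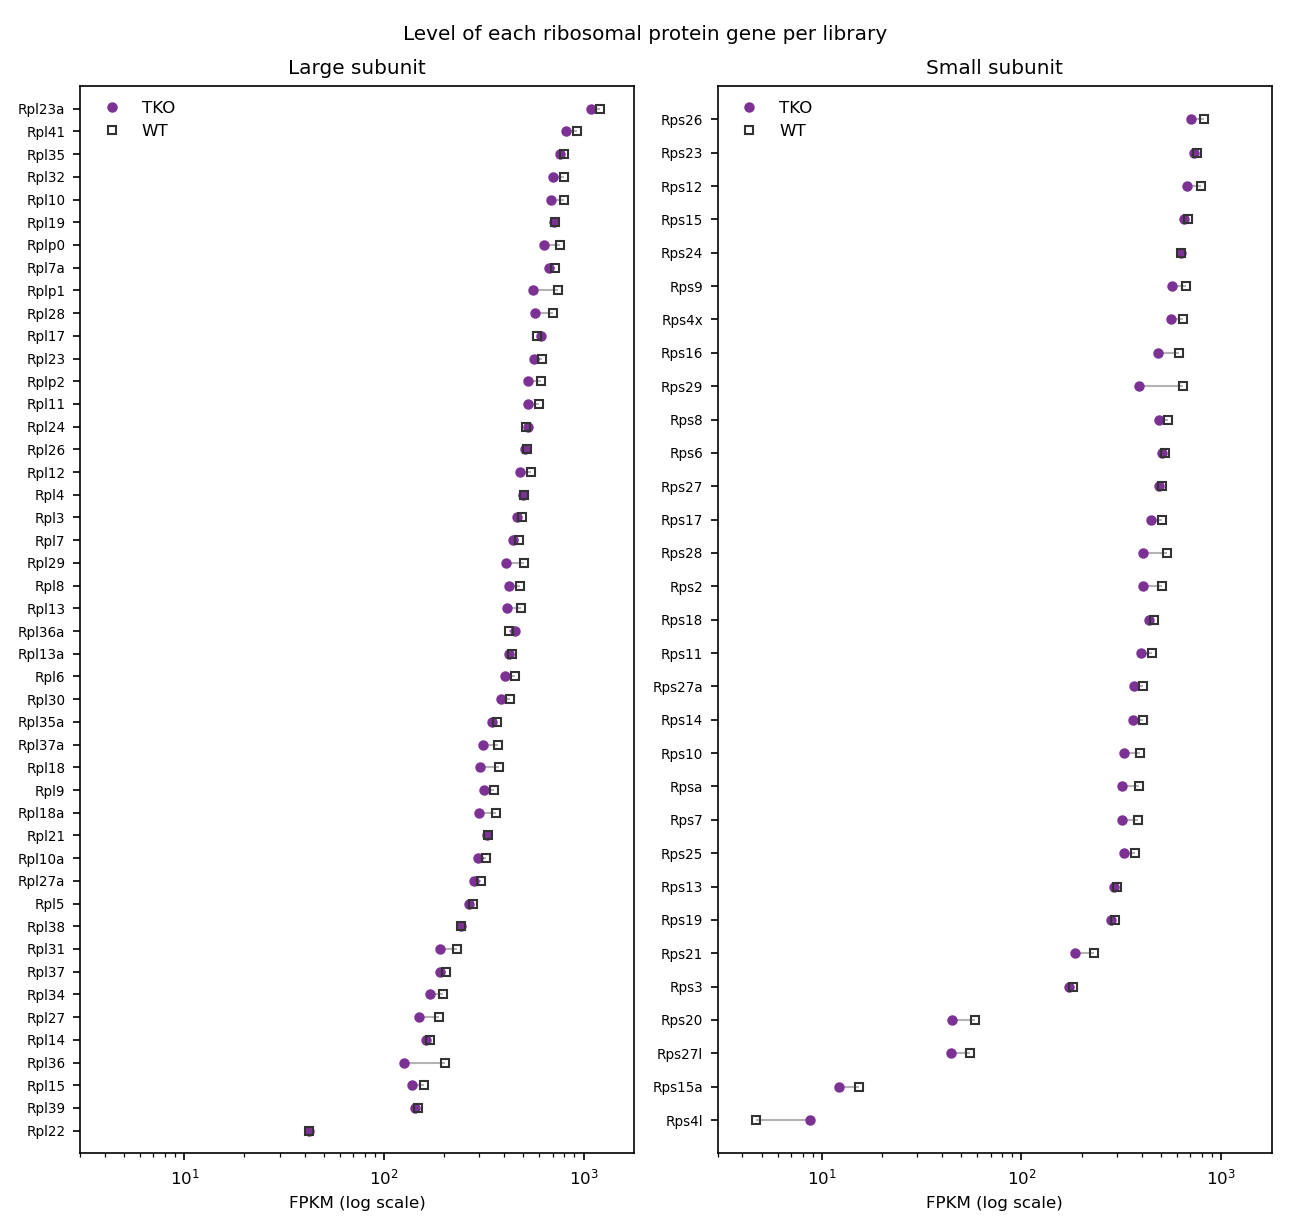
FPKM (log scale) of 46 measured large-subunit genes (left) and 31 small-subunit genes (right) in the TKO library (filled circles) and the WT library (open squares), ordered by mean FPKM. Most members lie between 100 and 1000 FPKM in both libraries and keep their order, while Rps15a, Rps20, Rps27l, Rps4l and Rpl22 lie below 100 FPKM.

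Levels of the members were high and similar in order in both libraries. The median was 407 FPKM in TKO and 459 in WT, with quartiles of 293 and 524 FPKM in TKO and of 309 and 618 in WT. Of the 100 genes with the highest FPKM, 19 were members in TKO and 23 in WT. Pearson's r between the log2 FPKM of the 2 libraries was 0.99 over the 78 genes, as a description, since genes share library and length. The highest was Rpl23a, at the tunnel exit where the signal recognition particle docks, with 1095 FPKM in TKO and 1206 in WT. It was followed in the large subunit by Rpl41, the shortest ribosomal protein, with 820 FPKM in TKO and 926 in WT, by Rpl35 with 759 in TKO and 798 in WT, and by Rpl32 with 705 in TKO and 796 in WT. By the mean of both libraries the highest in the small subunit was Rps26 with 704 FPKM in TKO and 817 in WT, followed by Rps23, which faces the decoding site, with 731 in TKO and 757 in WT. Rps12 came next with 673 FPKM in TKO and 796 in WT, and Rps15 had 650 in TKO and 683 in WT.

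The lowest levels were partly those of genes with long models. Rps15a had 12.2 FPKM in TKO and 15.3 in WT on a deposited length of 5158 bases, and Rps20 had 44.9 in TKO and 58.3 in WT on 3446 bases, the 2 members over 3000 bases. Counts of 689 in TKO and 856 in WT for Rps15a, and of 1685 in TKO and 2174 in WT for Rps20, were well within the range of the others. Whether such lengths hold for these macrophages was not tested. Rpl22 had 42.3 FPKM in TKO and 41.9 in WT, Rpl39 had 142 in TKO and 148 in WT, and Rpl15 had 138 in TKO and 158 in WT.

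Copies carry part of the signal of some members. The deposited counts were fractional in a library for 22 of the 78 measured members, as happens where reads are divided between genes. Processed copies with names of their own took 999 counts in TKO and 1092 in WT for Rpl14-ps1, and 1570 in TKO and 1812 in WT for Rpl31-ps12. Adding such counts to the parent gave log2 ratios of −0.10 for Rpl14, against −0.07 alone, and of −0.25 for Rpl31, against −0.27 alone. For Rps15a, with 2 copies, it was −0.27, against −0.32 alone. Of the lowest members, Rps29, Rpl36, Rplp1, Rps28 and Rps16 had whole counts in both libraries, while Rps20 had fractional counts in both.

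Short genes were somewhat lower in TKO among the other genes too, so the members were set beside genes of like length. Between 500 and 800 bases the median log2 ratio was −0.17 over 33 members and −0.11 over 347 other measured genes. Under 500 bases it was −0.22 over 16 members and −0.10 over 61 others. Between 800 and 1200 bases it was −0.11 over 15 members and −0.10 over 757 others. Between 1200 and 2000 bases it was −0.12 over 10 members and −0.07 over 2195 others. From 2000 bases on it was −0.20 over 4 members and −0.03 over 8225 others. Among other genes of at least 100 CPM with 500 to 800 bases the median was −0.04 over 38 genes. The part that length played in the members' ratios was not tested.

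**Figure D3:**
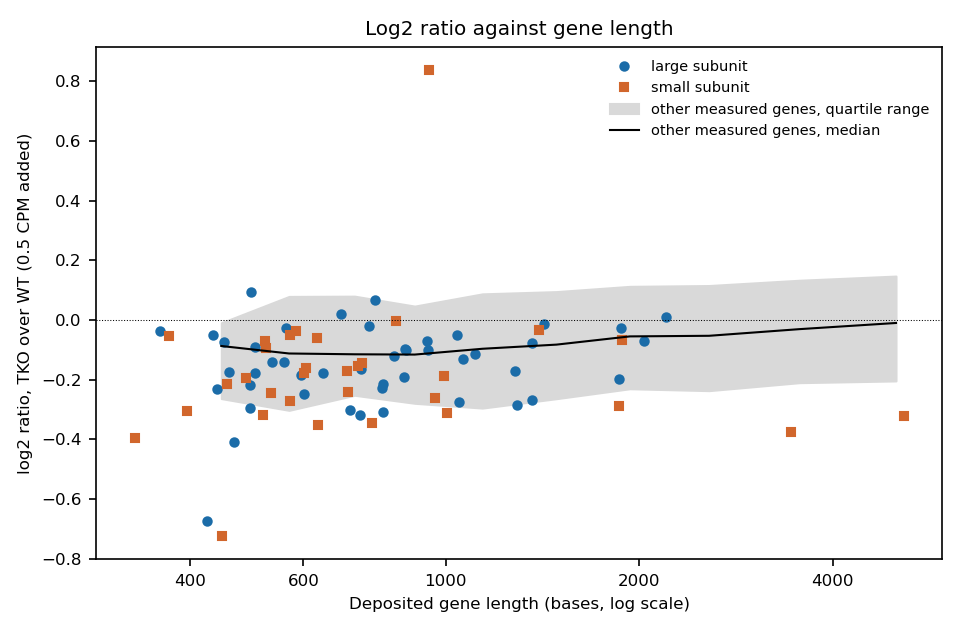
Log2 ratio of TKO over WT (0.5 CPM added) against deposited gene length (log scale) for large-subunit genes (circles) and small-subunit genes (squares), with the median and quartile range of the other measured genes in length bins. The 16 members under 500 bases have a median of −0.22, below the −0.10 of the 61 other genes of that length.

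By pyrimidine run near the start, the median log2 ratio was −0.12 over the 33 measured members with a pyrimidine run of at least 8 bases, −0.17 over the 24 without, and −0.18 over the 21 with no entry. The printed stretches were chosen by run and ratio, so they bear on no relation of run and ratio.

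The TKO genotype targets 3 microRNA clusters, whose mature microRNAs fall into 4 seed families. The library type does not measure mature microRNAs. Of the host RNA and hairpins of the clusters, the table lists Mir17hg, with 16 counts in TKO and 16 in WT, and since the host RNA extends beyond the microRNA hairpins this does not check the deletion. An example of each family is given from RefSeq (GRCm38.p6), with the seed, bases 2 to 8, in capitals, since the seed defines the sites searched for in the members.
mmu-miR-17-5p: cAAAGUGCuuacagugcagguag
mmu-miR-18a-5p: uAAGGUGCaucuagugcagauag
mmu-miR-19a-3p: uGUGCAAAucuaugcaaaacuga
mmu-miR-92a-3p: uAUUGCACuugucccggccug

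Few members hold a matching site. The letters complementary to each seed were searched in the longest annotated 3′ UTR of each gene (GENCODE M21, GRCm38). They read GCACTTT for the seed of mmu-miR-17-5p, GCACCTT for that of mmu-miR-18a-5p, TTTGCAC for that of mmu-miR-19a-3p and GTGCAAT for that of mmu-miR-92a-3p. At least 1 of these sites was found in 4 of 77 measured members (5.19%), against 34.4% of 11073 other measured genes. The members' 3′ UTRs had a median of 173 bases, against 1230 bases in the other genes. Those with a site were Rps20, Rps15a, Rpl15 and Rpl9, each through an annotated 3′ UTR of over 1000 bases. Their log2 ratios were −0.38 for Rps20, −0.32 for Rps15a, −0.20 for Rpl15 and −0.16 for Rpl9, all below 0, a median of −0.26 against −0.17 over the 73 members without a site. Rps29 and Rpl36 had none of these letters in their 3′ UTRs. The annotated 3′ UTR of Rpl9, 1955 bases, is longer than its deposited gene length of 737 bases. The deposited model of Rpl9 therefore cannot hold all of it. Which 3′ UTRs these macrophages used was not tested.

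Genes around the ribosome were described by the same rule. Rack1, a scaffold on the small-subunit head that the naming rule leaves out, had 3570 counts in TKO and 4524 in WT, a log2 ratio of −0.35, and was at least 1.1-fold lower. Fau, a fusion of a small-subunit protein, had 3151 in TKO and 3405 in WT, −0.12, and Rps3a1 had 5198 in TKO and 5491 in WT, −0.09. Neither reached 1.1-fold. Second copies with other name forms were near 0 or above, with log2 ratios of −0.03 for Rpl36al (911 counts in TKO, 922 in WT), 0.06 for Rpl22l1 (136 in TKO, 129 in WT) and 0.13 for Rpl7l1 (1256 in TKO, 1138 in WT).

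The counts that follow stand beside 18.8% of all measured genes at least 1.1-fold lower and 12.6% at least 1.1-fold higher. Of 21 other TOP messenger RNAs, 8 were at least 1.1-fold lower and 1 higher, with a median log2 ratio of −0.09. Rack1, given above, was among the lowest of them. Npm1, a nucleolar chaperone, was highest with 3600 counts in TKO and 3240 in WT, and Eef1d, an elongation factor subunit, followed with 968 in TKO and 879 in WT. Of 77 mitochondrial ribosomal protein genes, 7 were at least 1.1-fold lower and 1 higher, with a median of −0.11. Their counts are far smaller, so fewer can pass the rule. The lowest were Mrps22 (111 in TKO, 164 in WT) and Mrpl41 (83 in TKO, 110 in WT), and the highest were Mrps16 (95 in TKO, 68 in WT) and Mrpl53 (60 in TKO, 47 in WT).

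Of 53 measured initiation factor genes, 14 were at least 1.1-fold lower and 4 higher, with a median log2 ratio of −0.07. Eif1ad (240 in TKO, 316 in WT) and Eif2b1 (163 in TKO, 215 in WT) were lowest. Eif3a, the largest subunit of the factor that prepares the small subunit, had 5387 counts in TKO and 4187 in WT, a log2 ratio of 0.35. Eif3j2, with a near-identical copy, had 34 in TKO and 0 in WT, and its interval for TKO over WT began at 8.67. Of 34 ribosome biogenesis genes, 9 were lower by the same rule, 2 were higher, and the median was −0.05. Gar1 (76 in TKO, 112 in WT) and Nop10 (140 in TKO, 194 in WT), subunits of the particles that modify ribosomal RNA, were lowest, and Gnl3 (215 in TKO, 185 in WT) and Rrp1 (1695 in TKO, 1482 in WT) highest.

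Of 14 genes of RNA polymerase I and its factors, 1 was lower, Polr1b with 105 counts in TKO and 144 in WT, and none higher, with a median of −0.04. Polr1c (160 in TKO, 192 in WT) came next, and Ubtf (1111 in TKO, 1015 in WT) and Polr1e (57 in TKO, 53 in WT) were highest. Of 9 import and assembly chaperones, 4 were lower by this rule, 1 was higher, and the median was −0.16. Aar2 (285 in TKO, 392 in WT) and Ipo9 (400 in TKO, 490 in WT) were lowest, and Ipo7 (932 in TKO, 818 in WT) and Tnpo1 (707 in TKO, 696 in WT) highest. Of 19 regulators of ribosomal protein synthesis, 6 were lower by this rule, 2 were higher, and the median was −0.06. Among these Mxd1 had 433 counts in TKO and 638 in WT, and Myc, which drives ribosome production, had 64 in TKO and 91 in WT. Tsc1, which restrains mTOR signalling, had 471 in TKO and 346 in WT, a log2 ratio of 0.43, and Yy1 had 857 in TKO and 706 in WT, 0.27.

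**Figure D4:**
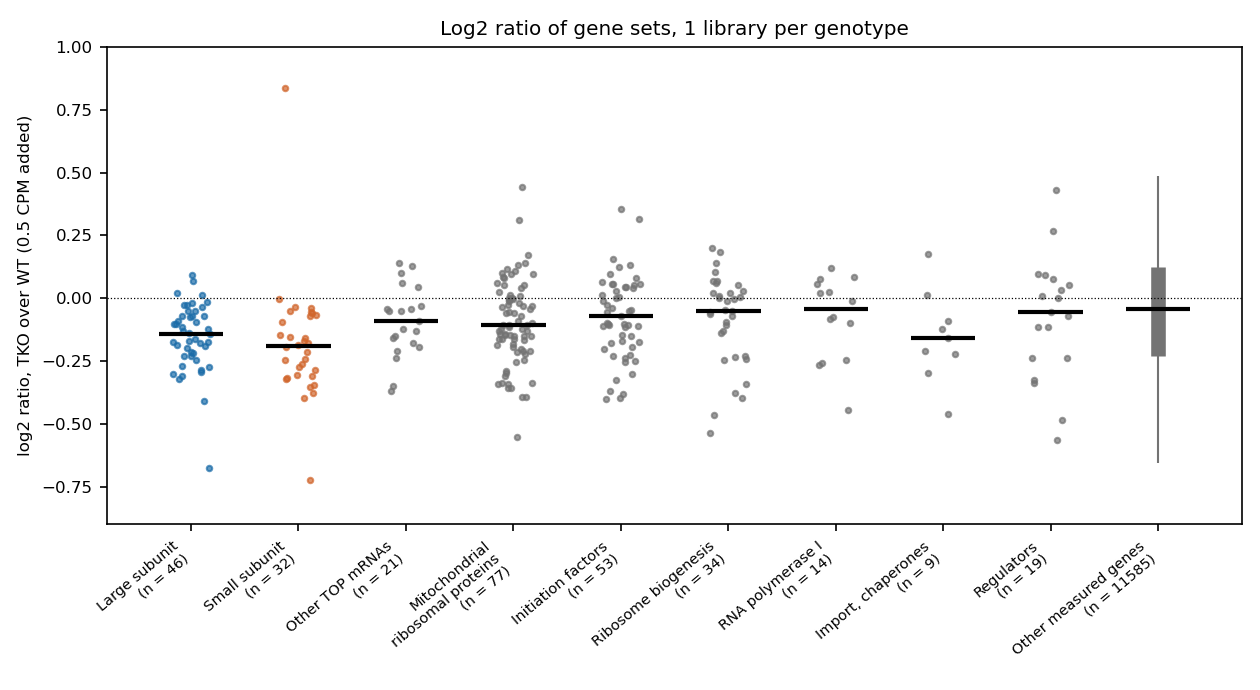
Log2 ratio of TKO over WT (0.5 CPM added) for each gene of the named sets, with the set median as a black line. For the other measured genes the thick bar spans the quartiles and the thin line the central 90%. The large-subunit median is −0.14 and the small-subunit median −0.19, against −0.04 over all measured genes, and 1 initiation factor, Eif3j2, lies above the axis.

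Markers of the cells were read beside these results. The 10 macrophage markers were measured in both libraries, with a median log2 ratio of −0.03, but they did not all stay level. By the 1.1-fold rule, 3 of these markers were called higher in the TKO library and 2 were called lower. Adgre1, with 9812 counts in TKO and 10003 in WT, met neither call. Proliferation markers were lower in TKO, 8 of 10 by at least 1.1-fold, with a median of −0.38 and sums of 22358 counts in TKO and 26407 in WT. Fibroblast and stromal markers were lower too, 7 of 10 measured by at least 1.5-fold, with sums of 2178 counts in TKO and 5591 in WT. Dendritic cell markers summed to 2160 counts in TKO and 407 in WT, nearly all from Itgax, with 2019 in TKO and 291 in WT. Neutrophil markers summed to 52 counts in TKO and 59 in WT, B cell markers to 11 in TKO and 15 in WT, T and NK cell markers to 83 in TKO and 92 in WT, and erythroid markers to 2 in TKO and 4 in WT. The part of cell composition or cell division in the ribosomal protein ratios was not tested.

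The authors' deposited table gives an adjusted value from their own comparison of the 2 libraries, which compares those libraries and not the genotypes. In the authors' deposited table an adjusted value of at most 0.05 and a lower level in TKO were given for 52 of the 82 members, where 10.8% of all genes were. There, 1 member, Rps4l, was higher in TKO at that threshold, where 7.71% of all genes were. Both shares are over all 16218 named genes, of which 11663 were measured. Genes with few counts can hardly reach such a value, and most members have high counts. A share among genes of like counts was not computed.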

How the data were processed

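Polyadenylated RNA of 1 TKO and 1 WT macrophage culture was sequenced. The deposited table holds, per the file headers, an expression value, FPKM, log2 ratio, p-value and adjusted value (treated as a score, since it exceeds 1) per gene, made by the authors. The deposited expression values are estimated counts, whole for 79.4% of genes in TKO and 79.2% in WT. Per the submitters' processing notes, the tools were HISAT2 2.0.4, Bowtie2 2.2.5 and RSEM 1.2.12 on mm10; no roles are stated. The annotation, strand setting and filters are not given in the sources used here.

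Estimated counts were rounded and divided by library totals of 10836879 (TKO) and 10764538 (WT). The row without a symbol, 1 of 16219, was left out (9.2e-06% of counts in TKO). Ratios carry 95% conditional binomial Clopper-Pearson intervals. Their computation was checked on simulated counts with Poisson spread only, the spread the intervals assume. That check says nothing on reads divided among copies or on spread between cultures. Reads are not independent molecules, so intervals cover counting error only. The authors' FPKM served for levels between genes, and their log2 ratios and p-values were not used as results beyond the adjusted values named. A gene called lower or higher had a ratio of at least 1.1 or 1.5-fold and an interval excluding equality. TMM used edgeR 4.0.16, size factors used DESeq2 1.42.0, in R 4.3.3; other steps used Python 3.11.15 with SciPy 1.17.1. No statistical test between genotypes was run.

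The members and gene lists were chosen with earlier results of these data known. Named with values were the 4 highest and 4 lowest members of each subunit by FPKM and by log2 ratio, members with known roles, second copies, the ribosome proteins outside the naming rule, and the 2 highest and 2 lowest genes of each ribosome-related list. For marker lists sums and counts are given, with Adgre1 and Itgax named after their values were seen. Rpl39, Rps27 and Rps21 in the length comparison were also named after values were seen. Names and coordinates come from RefSeq GRCm38.p6, which matched all 82 members. Some genes that counts, sums and medians include are not reported here by name.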

Additional observations from a re-analysis of the deposited data

How the results depend on the processing

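Of 121 recomputed values 0 reversed and 18 moved beyond counting error or, for counts of genes, by over 1.5 times. The members' median log2 ratio ranged from −0.18 to −0.12 and the count at least 1.1-fold lower, 46, from 33 (TMM) to 47. The large minus small difference of medians, 0.05, was 0.02 with no filter on low values. The summed TKO over WT ratio, 0.895, was 0.926 under TMM, 0.918 under DESeq2 and 0.890 on FPKM. The count at least 1.1-fold higher was 2 under TMM (Rps4l and Rpl36a), which raises all ratios. It was 0 at a mean of at least 10 CPM and 0 without second copies, and the count at least 1.5-fold higher was 0 under both, since each leaves out Rps4l. Without Rps29 and Rpl36 the count at least 1.5-fold lower was 0. The large over small ratio of FPKM, 1.58 in TKO and 1.53 in WT, was 1.76 in TKO and 1.70 in WT on summed counts, 1.61 in TKO and 1.56 in WT with copies added, 1.43 in TKO and 1.39 in WT with Rps3a1, Fau and Rack1 added, and 1.62 in TKO and 1.59 in WT without Rps29 and Rpl36. It was 1.5 in WT on members with whole counts. Adding copies or these 3 proteins, and leaving out Rps29 and Rpl36 or long gene models, were chosen after seeing the data.

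No paired analysis was possible because each genotype has 1 library. Leaving out a library was not possible either. Counting intervals do not include differences between cultures, so a 1.1-fold difference cannot be set against biological spread. Low counts, as for Rps4l, leave wide intervals, and the 4 members under 1 CPM allow no statement on a difference.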
